A study of Homo sapiens with 2 samples.

Results

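MYC and CCND1, a pair of growth-driving oncogenes, were examined for binding of the chromatin protein DEK in 786-O cells. The gene spans were taken from the RefSeq table of GRCh38.p14 and widened by 300 kb on each side, and every deposited peak that overlapped these windows was kept. MYC (gene ID 4609) lies on chromosome 8 from 127735434 to 127742951, and CCND1 (gene ID 595) on chromosome 11 from 69641156 to 69654474. The windows held 40 of the 19015 peaks of replicate 1 and 45 of the 24457 peaks of replicate 2 on chromosomes 1 to 22 and X. After overlapping peaks were joined these formed 51 regions, 35 around MYC and 16 around CCND1, of 30398 regions in all.

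The data are ChIP-seq peak lists of 786-O, an established line of human renal carcinoma, in a single group of 2 replicates. The labels give the cells a wild-type genotype and the antibody as DEK, and call both samples negative control. The labels leave unclear whether negative control means the cells or the precipitation. The regions are called DEK regions on the reading that control cells were precipitated with a DEK antibody, and if the precipitation was the control they would not show DEK binding. The sample descriptions carry the name Cas9, and the labels name no edited gene and no guide. No label says that the replicates came from separate cultures, so the spread between them may be technical. No input, other antibody or edited cells were analysed here, so no contrast between groups exists and no result below carries a p-value.

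MYC encodes a transcription factor that pairs with MAX and activates genes of growth, ribosome production and metabolism. CCND1 encodes cyclin D1, the partner of the kinases CDK4 and CDK6, which phosphorylate RB and so release E2F factors for entry into S phase. 786-O cells lack functional VHL, so the hypoxia-inducible factor HIF-2 is active at normal oxygen, and CCND1 is a known HIF-2 target in such cells through distant enhancers. PVT1 is a long non-coding RNA gene next to MYC that is often gained together with it and holds enhancers that can act on MYC. DEK is an abundant nuclear protein that binds DNA and histones and acts as a chaperone of the histone variant H3.3. Both MYC and CCND1 are transcribed towards higher coordinates, which is textbook knowledge, so their upper end is the 3′ end.

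The surroundings of MYC were dense in DEK regions and most of them lay on the 3′ side of the gene, whereas those of CCND1 lay on both sides and were fewer. The MYC window, of 608 kb, held 23 regions present in both replicates, here called shared (overlap of at least 1 bp). The CCND1 window, of 613 kb, held 10. With only 100 kb on each side the counts were 6 and 5, so the excess around MYC lay farther out. Of the 23, 2 lay on the 5′ side, 1 had its summit inside MYC and 20 lay on the 3′ side, 19 of them inside PVT1. Of the 10 around CCND1, 6 lay on the 5′ side, none had its summit inside the gene and 4 lay on the 3′ side. When a fold enrichment of at least 5 was required in each library, 0 regions were left around MYC and 2 around CCND1. When −log10 q had to reach 5 in each library, 12 were left around MYC and 3 around CCND1.

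By overlap of at least 1 bp, most peaks of either window recurred in the other library. With summits required to lie within 100 bp, the mean share of the replicates fell from 80.4% to 44.4% around MYC and from 76.9% to 61.5% around CCND1. No share of all peaks is given under the summit rule, so whether these values are usual is not known. In the MYC window 24 of 27 peaks of replicate 1 overlapped a peak of replicate 2 (88.9%, 95% Wilson interval 71.9 to 96.1), against 67.8% of all peaks of that library. From replicate 2, 23 of 32 peaks recurred (71.9%, 54.6 to 84.4), against 52.2% of all. Around CCND1 the count was 10 of 13 in each library (76.9%, 49.7 to 91.8). Both intervals of the MYC window lie above the share of all peaks of the same library, and both of the CCND1 window include it. Intervals cover counting error only, and peaks of 1 locus are not independent.

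**Figure D1:**
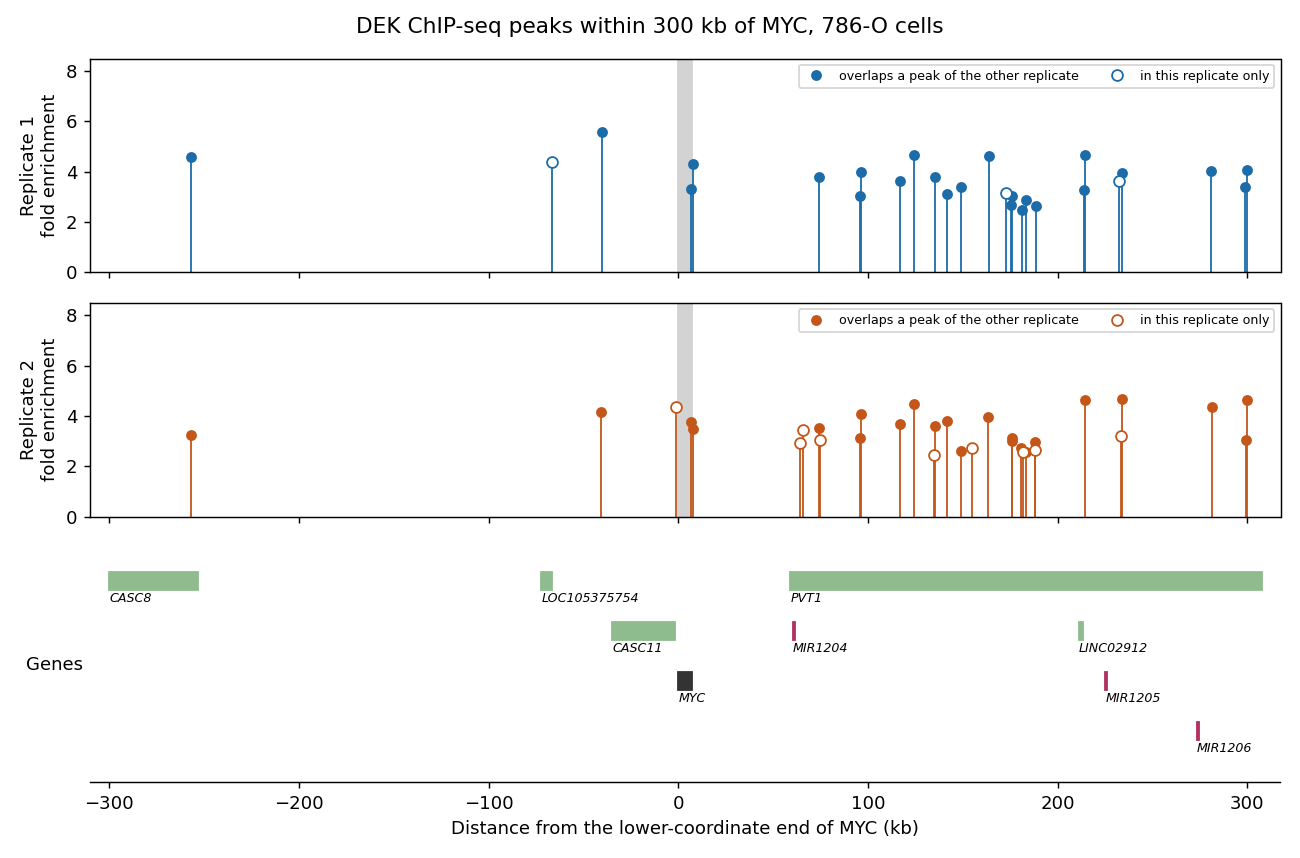
Fold enrichment of each DEK peak (y axis, a linear ratio given by the authors) against the distance of its summit from the lower-coordinate end of MYC (x axis, kb), for replicate 1 (top) and replicate 2 (middle), with annotated genes below (black, protein-coding; green, long non-coding RNA; red, miRNA; grey band, MYC). Filled points overlap a peak of the other replicate and open points do not. Of the 23 shared regions, 19 lie inside PVT1.

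At MYC itself the shared DEK signal sat at the 3′ end. The first of 2 shared regions lay inside the gene near that end, at 127741975 to 127742284, with a fold enrichment of 3.33 in replicate 1 and 3.78 in replicate 2 (3.55 ± 0.317, SD, n = 2). The second, at 127742637 to 127743366, spanned the annotated 3′ end with its summit 0.197 kb beyond it and reached 4.29 and 3.49 (3.89 ± 0.559). The order of this pair differed between the replicates, the outer region being higher in replicate 1 and the inner one in replicate 2. The pileup at the summit, a count of the fragments stacked there, was 22 and 25 at the inner region. At the outer region it was 28 (95% exact Poisson interval 18.6 to 40.5) and 23 (14.6 to 34.5), and these intervals overlap.

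The 5′ end of MYC had no shared region within 1 kb. A peak of replicate 2 alone, at 127734124 to 127734324, ended 1.11 kb before the gene with a fold enrichment of 4.35 and a pileup of 19. It lay at the upper end of CASC11, a long non-coding RNA gene beside MYC, and the nearest peak of replicate 1 was 7.65 kb away. Absence from a peak list says that the signal stayed under the authors' threshold in that library, and does not show that DEK was missing there.

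The 5′ side of MYC was sparse. Its 2 shared regions were the one inside the long non-coding RNA gene CASC8 at 127478424 to 127478901, 257 kb from MYC, and the one at 127694846 to 127695255, 40.4 kb from MYC and outside any annotated gene. The CASC8 region had a fold enrichment of 4.59 in replicate 1 and 3.25 in replicate 2 (3.92 ± 0.944), with pileups of 16 and 11. The region at 40.4 kb had 5.56 and 4.14 (4.85 ± 1.00), with pileups of 20 and 13. It was the strongest shared region of the MYC window by the mean fold enrichment, although 22nd of 23 by pileup in each library. Replicate 1 alone had a peak at 127668570 to 127668967 inside LOC105375754, 66.6 kb from MYC, with a fold enrichment of 4.38. Between the CASC8 region and this peak, 190 kb held no peak of either library.

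The 3′ side began with a gap and then filled with regions. From the 3′ end of MYC to the annotated start of PVT1 at 127794524, a distance of 51.6 kb, the only region was the one at the end of MYC. The first peaks inside PVT1 belonged to replicate 2 alone. They lay at 127799834 to 127800015 (56.9 kb from MYC, fold enrichment 2.92) and 127800946 to 127801329 (58.2 kb, 3.45), with the nearest replicate 1 peak 9.44 and 8.12 kb away.

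The first shared region of PVT1 was at 127809451 to 127809921, 66.8 kb from MYC, with 3.80 in replicate 1 and 3.54 in replicate 2. A replicate 2 peak at 127810175 to 127810401 (fold enrichment 3.02) stood 0.254 kb from it. A close pair followed at 88.2 and 88.8 kb. Its first member, 127830961 to 127831408, had 3.05 and 3.11, and its second, 127831549 to 127831950, had 3.99 and 4.07. The second member was higher in both libraries.

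The densest part of PVT1, a stretch chosen after its values were seen, ran from 127851330 to 127924125. It held 11 shared regions and 5 of a single library in 72.8 kb. The broad region at 127851330 to 127852544, 109 kb from MYC and 1215 bp wide, had fold enrichments of 3.62 and 3.70 and pileups of 41 and 45. The region at 127859750 to 127860128 (117 kb) had 4.65 and 4.49. At 127870597 to 127871031 (128 kb) they were 3.78 and 3.59, with pileups of 42 and 47. This last region had the highest pileup of the window in replicate 1 and shared the highest in replicate 2, while its fold enrichment ranked 12th of 23 in each library.

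The region at 127876779 to 127877065 (134 kb) had fold enrichments of 3.10 and 3.82 with pileups of 35 and 47. That at 127884261 to 127884578 (141 kb) had 3.37 and 2.61. The widest region of the MYC window, 1441 bp at 127898499 to 127899939 (156 kb), had 4.63 and 3.97. Its summits lay 332 bp apart in the replicates, the largest offset among the shared regions of this window. The median offset was 90 bp, against 69 bp over all shared regions of the series.

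The upper part of the stretch held 5 shared regions with mean fold enrichments of 3.03 or less. The pair at 127910737 to 127911293 and 127911511 to 127911721 (168 and 169 kb) had 2.69 and 3.14 for the first and 3.05 and 3.01 for the second. The region at 127916275 to 127916609 (173 kb) had 2.46 and 2.75, and that at 127918427 to 127918831 (176 kb) had 2.88 and 2.56. The last, at 127923713 to 127924125 (181 kb), had 2.64 and 2.95. Their mean percentiles of fold enrichment among all shared regions ran from 1.38 to 6.71. Their pileups of 28 to 38 in replicate 1 and 36 to 41 in replicate 2 exceeded the library median of 19. A peak of such low fold enrichment needs a high pileup to reach the authors' threshold, so this pairing was built in.

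The peaks of a single library in this stretch were 1 of replicate 1 and 4 of replicate 2. The replicate 1 peak at 127907952 to 127908176 (165 kb) had a fold enrichment of 3.14 and stood 2.61 kb from the nearest replicate 2 peak. Those of replicate 2 lay at 127870146 to 127870373 (127 kb, fold enrichment 2.44), 127889943 to 127890198 (147 kb, 2.73), 127916860 to 127917022 (174 kb, 2.57) and 127923184 to 127923513 (180 kb, 2.63). Of these 4, 3 were under 1 kb from a replicate 1 peak, and that at 147 kb was 5.44 kb away.

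Further along PVT1 the regions were sparser and most had a higher fold enrichment. A broad region of 1386 bp at 127948858 to 127950243 (207 kb) joined 2 peaks of replicate 1 and 1 of replicate 2, with 4.65 and 4.62 (4.63 ± 0.0181), and lay at the upper end of the long non-coding RNA gene LINC02912. The region at 127969230 to 127969860 (227 kb) had 3.95 and 4.68, the highest of the window in replicate 2. Beside it stood a replicate 1 peak at 127967395 to 127967734 (225 kb, fold enrichment 3.64) and a replicate 2 peak at 127968679 to 127968852 (226 kb, 3.22), which did not overlap each other. These 2 single-library peaks were 0.945 kb apart.

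The last shared regions were at 128016381 to 128016778 (274 kb), with 4.03 and 4.37, at 128034357 to 128034913 (292 kb), with 3.39 and 3.05, and at 128035035 to 128035479 (292 kb), with 4.07 and 4.65. Just outside the window, the next region on the upper side was a replicate 1 peak 334 kb from MYC with 3.40, and the next on the lower side a shared region 441 kb away with 3.39 and 3.96. The miRNA genes of PVT1 in the window, MIR1204, MIR1205 and MIR1206, were 13.4, 8.54 and 7.43 kb from the nearest shared region.

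PVT1 as a whole spans 307 kb and held 19 shared regions and 11 of a single library. At 6.19 shared regions per 100 kb it ranked 1st by number and by density among the 987 long non-coding RNA genes of at least 100 kb, whose median was 0. This ranking was computed after the regions of PVT1 had been seen and is a description. Without PVT1, the MYC window held 4 shared regions.

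**Figure D2:**
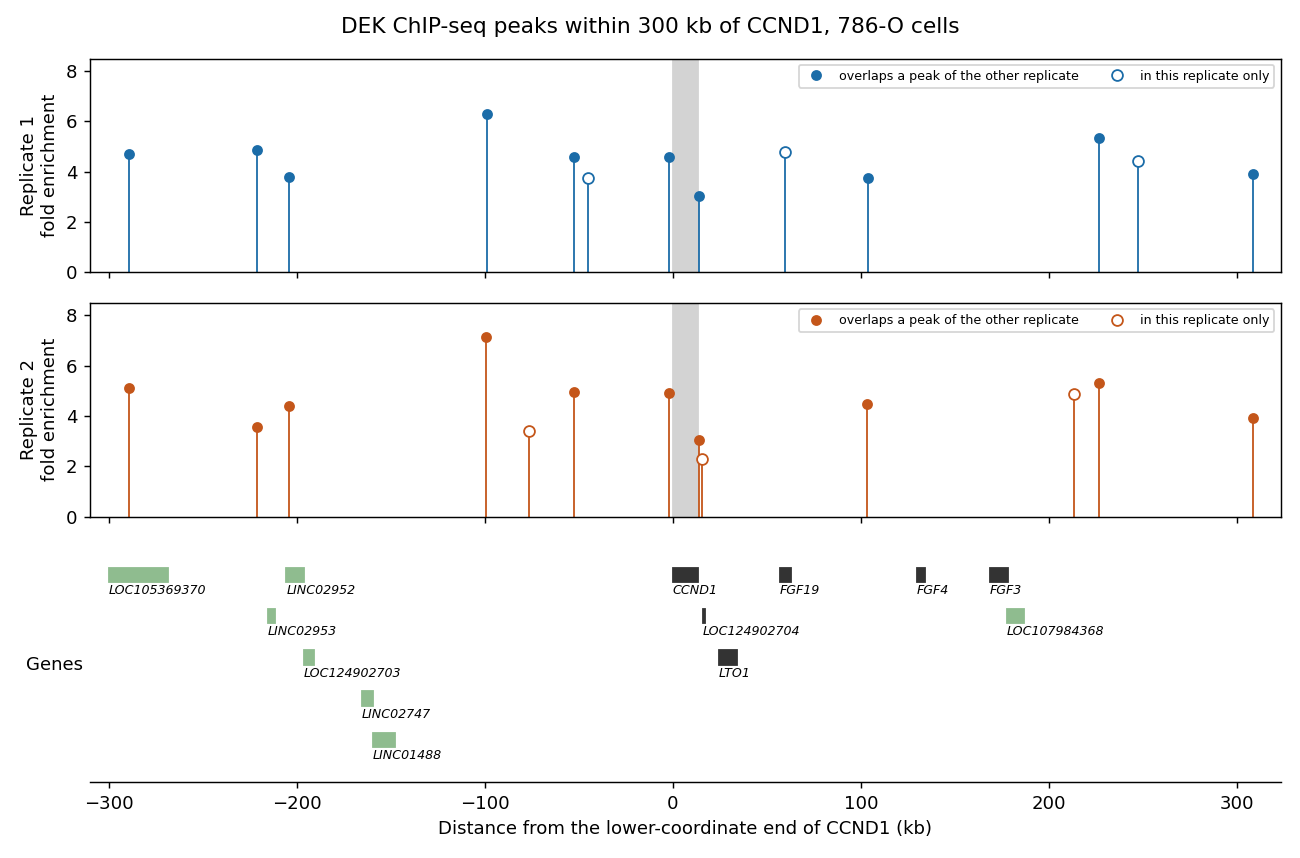
Fold enrichment of each DEK peak (y axis, a linear ratio given by the authors) against the distance of its summit from the lower-coordinate end of CCND1 (x axis, kb), for replicate 1 (top) and replicate 2 (middle), with annotated genes below (black, protein-coding; green, long non-coding RNA; grey band, CCND1). Filled points overlap a peak of the other replicate and open points do not. The highest points, 6.30 and 7.15, are at 99.2 kb on the 5′ side.

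CCND1 likewise had a shared region at its 3′ end and none within 1 kb of its 5′ end. The 3′ region, at 69654743 to 69655298 with its summit 0.606 kb beyond the gene, had fold enrichments of 3.04 and 3.03 (3.03 ± 0.0047, SD, n = 2). This was the lowest value among the 10 shared regions of the window in each library. Its pileup of 33 (95% exact Poisson interval 22.7 to 46.3) and 36 (25.2 to 49.8) was the highest in replicate 1 and the second highest in replicate 2. Replicate 2 alone had a further peak at 69656447 to 69656965, 2.40 kb beyond the gene and at the lower end of LOC124902704, with a fold enrichment of 2.29 and a pileup of 28.

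The nearest region on the 5′ side of CCND1 was shared and lay 2.03 kb before the gene, at 69638854 to 69639247. It had fold enrichments of 4.60 and 4.90 (4.75 ± 0.211) on pileups of only 14 and 15, the lowest of the window's shared regions in both libraries. The nearest shared regions on the 2 sides of CCND1 thus stood in opposite order by the 2 measures. In both replicates the 5′ one was higher in fold enrichment and the 3′ one in pileup.

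The strongest region around CCND1 lay far upstream. At 69541422 to 69542169, 99.2 kb from the gene and outside any annotated gene, the fold enrichment was 6.30 in replicate 1 and 7.15 in replicate 2 (6.73 ± 0.597). Its mean percentile was 96.0 among all shared regions, and its pileups were 31 (21.1 to 44.0) and 46 (33.7 to 61.4), intervals that overlap. It was 1st of 10 by fold enrichment in both libraries.

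The other 4 shared regions of the 5′ side lay between 52.6 and 289 kb from the gene. At 69588402 to 69588625 (52.6 kb) the fold enrichments were 4.57 and 4.94. At 69436974 to 69437525 (204 kb), inside the long non-coding RNA gene LINC02952, they were 3.78 and 4.38. At 69419500 to 69419992 (221 kb) they were 4.87 and 3.57, the largest disagreement between replicates in this window. The broad region at 69351581 to 69352887 (289 kb, 1307 bp), inside LOC105369370, had 4.71 and 5.10. The long non-coding RNA genes LINC02953, LOC124902703, LINC02747 and LINC01488 on this side overlapped no region, and LOC107984368 on the other side had none either. Peaks of a single library on this side were 69564477 to 69564653 in replicate 2 (76.6 kb, 3.39) and 69595862 to 69596114 in replicate 1 (45.2 kb, 3.76).

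On the 3′ side the growth factor genes FGF19, FGF4 and FGF3 and the ribosome-associated gene LTO1 had no shared region. FGF19 held a replicate 1 peak alone, at 69700674 to 69700899 (46.3 kb from CCND1, fold enrichment 4.78, pileup 13), and no replicate 2 peak came nearer to it than 43.6 kb. The shared regions were at 69744405 to 69745137 (90.2 kb), with 3.74 and 4.47, at 69867567 to 69868091 (213 kb), with 5.33 and 5.30 (5.31 ± 0.0197), and at 69949478 to 69949724 (295 kb), with 3.89 and 3.93. The second of these reached the 86.8 mean percentile. A stretch of 110 kb that contains FGF4 and FGF3 had no peak of either library. Single-library peaks were 69854739 to 69855035 in replicate 2 (200 kb, 4.89) and 69888420 to 69888688 in replicate 1 (234 kb, 4.43). Just outside the window, the nearest regions were shared ones 339 kb away on the lower side (3.15 and 3.57) and 579 kb away on the upper side (6.44 and 6.30).

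Of the 25 genes annotated in the windows, 3 had a shared region at an end (within 1 kb), namely MYC, CCND1 and LINC02912, each at the end of higher coordinate. Across the series 7.53% of 19974 protein-coding genes had such a region at either end, and 22.0% had one overlapping the gene. The 25 genes also include non-coding genes, so the 2 sets are not alike. Strand was known from the RefSeq promoter table for 15813 protein-coding genes, which do not include MYC and CCND1. Among them 5.63% had a shared region at the 5′ end and 2.75% at the 3′ end. A region at the 3′ end with none at the 5′ end, the arrangement of both MYC and CCND1, was present in 364 genes (2.30%). For CCND1 the arrangement depends on the 1 kb limit, because within 3 kb its 5′ end had a shared region too. With 2 genes chosen by name, these shares are a background and no test. At a minimum −log10 q of 5 in both libraries no end of either gene kept a shared region.

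Fold enrichment and pileup ranked these loci in opposite ways. The fold enrichment is the pileup relative to the local background, each with a small constant added, and this background differed between the loci. A called peak of low fold enrichment needs a high pileup, so these rankings are not independent. The background here is the number of reads per 10 kb around the summit, recovered together with the pileup from the deposited values. It can be read as reads of the same library if peaks were called without a control, and whether they were is not stated. The library medians over all peaks were 219 and 246 reads per 10 kb. At the 19 shared regions inside PVT1 the median background was 429 and 516 reads, 1.96 and 2.10 times the library median, and the highest were 663 and 848 reads (3.03 and 3.45 times). At the 4 shared regions of the window outside PVT1 it was 240 and 263 reads. At the 10 around CCND1 it was 215 and 263, close to the library medians, and the 3′ region of CCND1 stood out with 573 and 688.

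The median peak of the MYC window stood at the 31.2 and 21.9 percentile of its library by fold enrichment and at the 88.0 and 88.5 percentile by pileup. The median CCND1 peak stood at 74.8 and 74.1 by fold enrichment and at 36.3 and 49.4 by pileup. Of the 23 shared regions around MYC, 16 had a mean fold enrichment below the series median of 4.12, and 20 had pileups above the median of 19 in both libraries. Of the 10 around CCND1, 4 were below 4.12 and 4 had such pileups. The 4.12 is the median of all shared regions, whereas the 19 is the median of all peaks of each library. The share of all shared regions with such pileups is not given, so whether these counts are high or low is not known.

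The high background lay on the PVT1 side of MYC. Within 200 kb beyond the 3′ end there were 16 and 22 peaks. Their median background was 566 and 622 reads per 10 kb, 2.58 and 2.53 times the library median. Within 200 kb of the 5′ end there were only 2 peaks in each library. These had medians of 153 and 184 reads, 0.696 and 0.746 times. The PVT1 side was not the only high stretch nearby. Peaks from 1800 to 2000 kb beyond the 3′ end, 4 and 3 in number, had 331 and 481 reads (1.51 and 1.96 times). Peaks from 300 kb to 2 Mb from MYC had a median background of 240 and 198 reads per 10 kb, those from 2 to 10 Mb 198 and 227, and all peaks of chromosome 8 180 and 204. Within 300 kb the medians were 379 and 477. Around CCND1 the medians within 300 kb were 197 and 251, and from 300 kb to 2 Mb they were 197 and 238. A local gain of DNA copies and more precipitated chromatin cannot be told apart here without an input library.

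**Figure D3:**
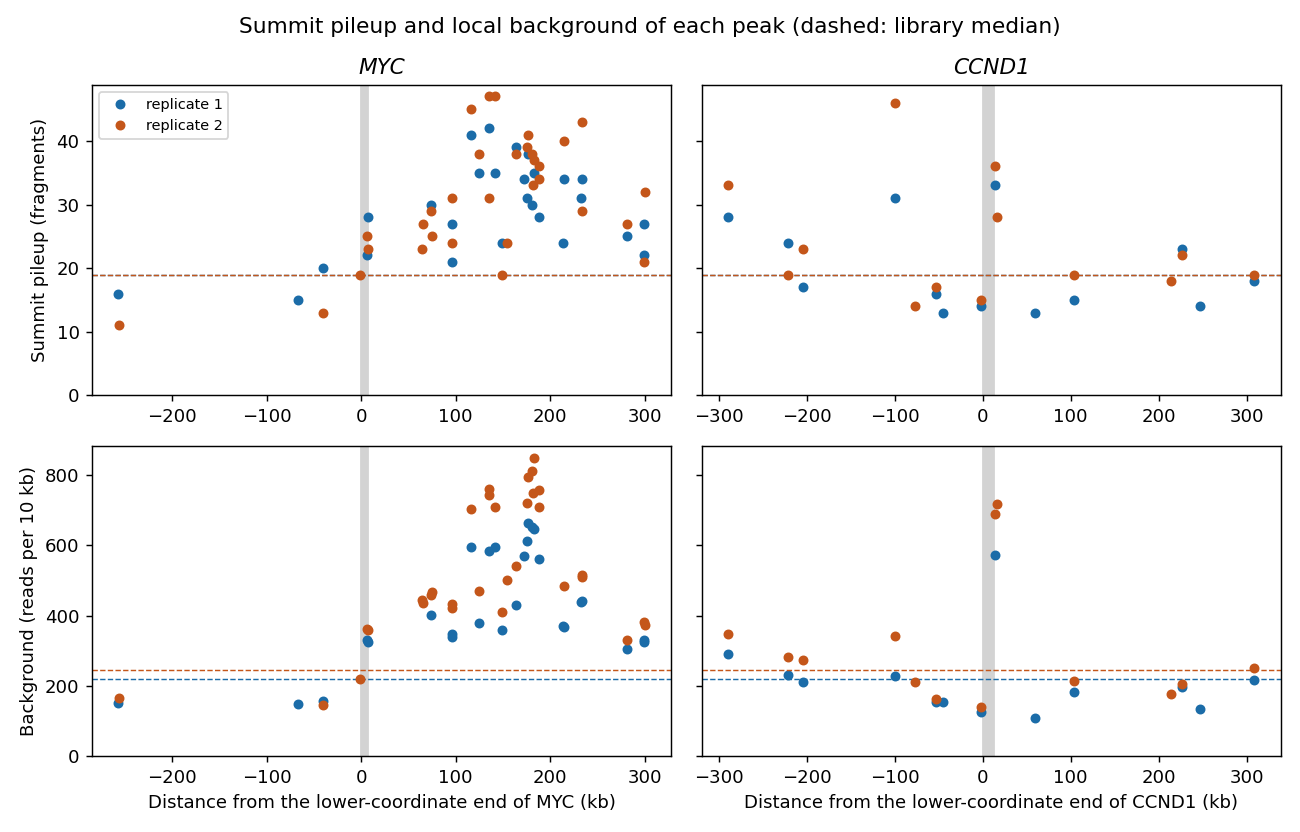
Summit pileup in fragments (top) and local background in reads per 10 kb (bottom) of each peak against the distance from the lower-coordinate end of MYC (left) and CCND1 (right), in kb, for replicate 1 (blue) and replicate 2 (orange); dashed lines are library medians and grey bands the genes. Background climbs to 663 and 848 reads at shared regions on the PVT1 side of MYC, and around CCND1 it is high at the 3′ end.

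Fold enrichment of the shared regions differed between replicates about as much as elsewhere in the series. Among the shared regions the median absolute log2 ratio of fold enrichment between replicates was 0.16 around MYC and 0.11 around CCND1, against 0.17 over all 12590 shared regions. Replicate 1 was higher in 12 of 23 regions around MYC and in 3 of 10 around CCND1, against 6371 of the 12590 of the series. The 95% Poisson intervals of the pileups overlapped between replicates at all 33 shared regions of both windows. Such intervals are wide at these counts, and every shared region was called in both libraries. Their overlap is therefore no measure of agreement between the replicates. The 18 regions of a single library had fold enrichments from 2.29 to 4.89, and 6 of their peaks lay within 1 kb of a peak of the other library. All 6 were in the MYC window and none in that of CCND1. The matching share over all single-library peaks of the series is not given.

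Neighbouring regions lay closer together around MYC than around CCND1. Of the 34 gaps between neighbouring regions of the MYC window 11 were under 1 kb, of which 4 separated 2 shared regions and 7 involved a peak of a single library. The median gap was 6.47 kb. Around CCND1 none of the 15 gaps was under 1 kb, and the median was 23.7 kb. Peaks covered 1.83% and 2.10% of the MYC window in replicates 1 and 2, and 0.851% and 0.938% of the CCND1 window.

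The concentration on the 3′ side of MYC was limited in extent. Its densest part, with 11 shared regions, began 109 kb from the gene. In steps of 200 kb beyond the 3′ end of MYC, the number of shared regions was 15, 8, 3 and 0, and in the same steps beyond the 5′ end it was 1, 1, 1 and 0. For CCND1 the counts were 2, 2, 1 and 2 on the 3′ side and 3, 5, 5 and 0 on the 5′ side. A step here counts regions by their summits, and the summit inside MYC is in none of them.

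**Figure D4:**
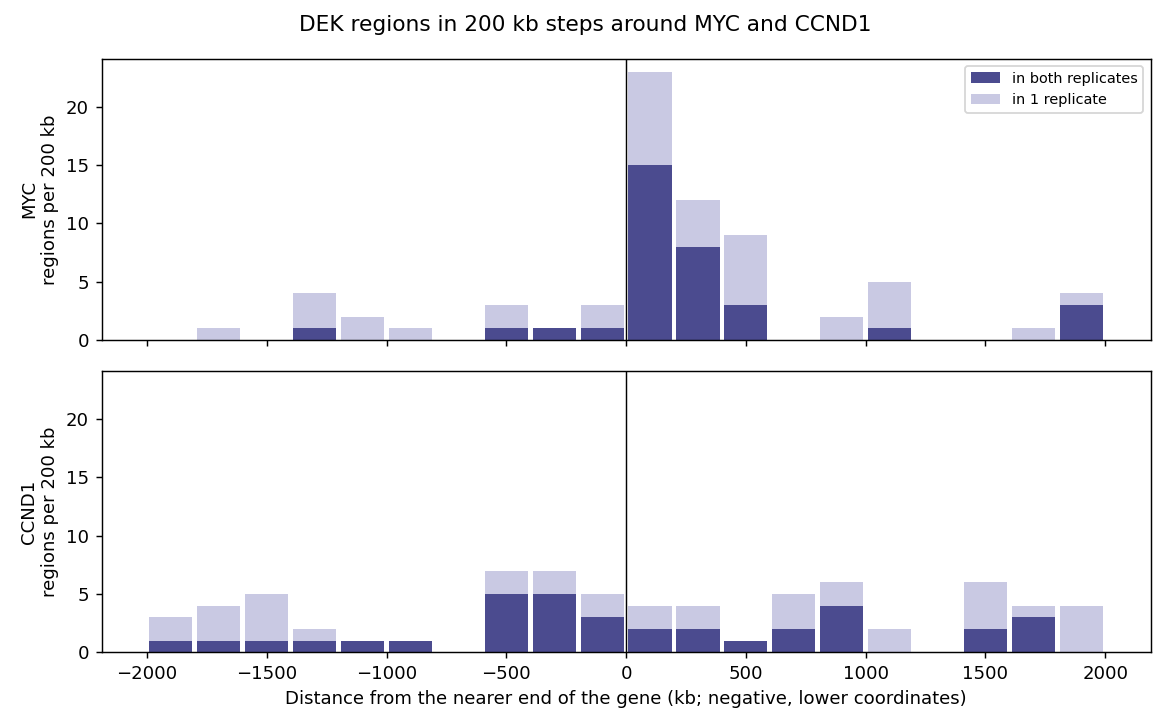
Number of DEK regions with a summit in each 200 kb step from the nearer end of MYC (top) and CCND1 (bottom), out to 2000 kb on either side, stacked as present in both replicates (dark) and in 1 replicate (light); summits inside the genes are left out. The tallest bar, the first 200 kb beyond the 3′ end of MYC, holds 15 shared regions.

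Windows drawn by the same rule around all 19974 protein-coding genes held a median of 4 shared regions (quartiles 1 and 8) and at most 33. Only 22 genes (0.110%) had as many as the 23 of MYC or more, MYC included, and 16.3% had as many as the 10 of CCND1 or more. Windows of neighbouring genes overlap and are not independent. The closest relatives of both genes were lower. MYCN, the neuronal MYC paralogue, had 1 shared region in its window and MYCL, first found in lung cancer, had 7. The cyclin D2 gene CCND2 had 1 and the cyclin D3 gene CCND3 had 8. None of these 4 paralogues had a shared region at an end or inside the gene.

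**Figure D5:**
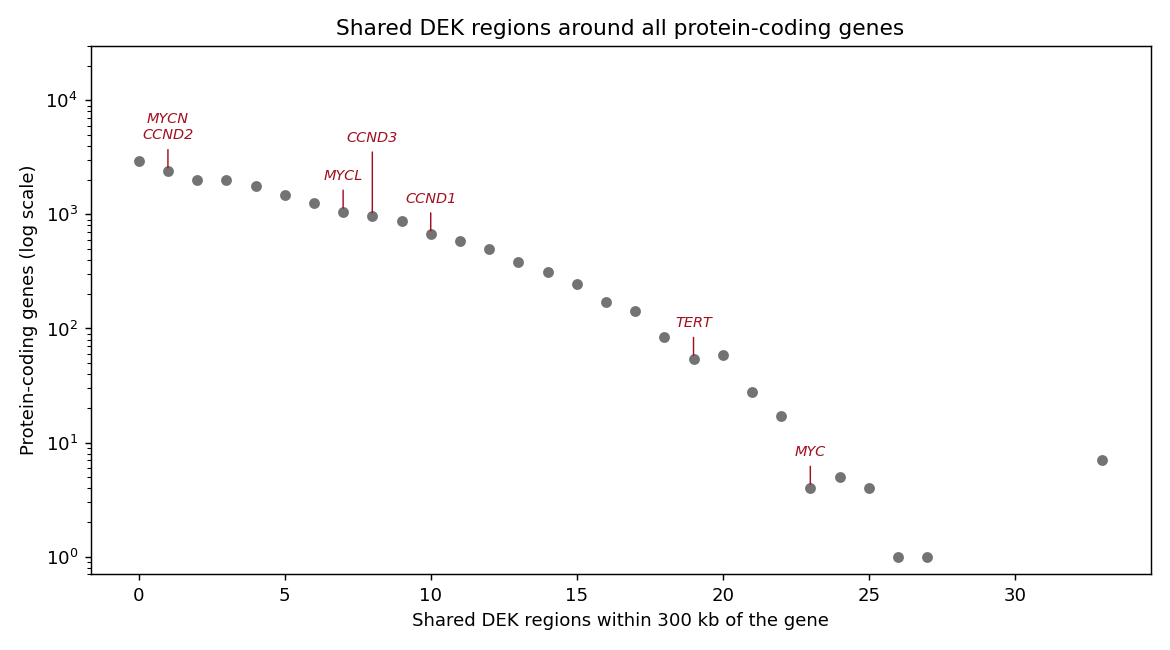
Number of protein-coding genes (y axis, log scale) by the number of shared DEK regions within 300 kb (x axis), with MYC, CCND1, their paralogues and TERT marked. MYC, at 23, lies far to the right of MYCN (1) and MYCL (7), and CCND1, at 10, lies beside CCND3 (8).

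The partners and regulators of these proteins were read from gene lists of 56 genes in all, of which 7 (12.5%) had a shared region at an end against 7.53% of protein-coding genes. A region overlapping the gene was found in 16 (28.6%) against 22.0%. In the MYC network of dimer partners and antagonists 1 of 12 genes had a region at an end. This was MXD1, an antagonist that competes for MAX, with 4.78 in replicate 1 and 5.85 in replicate 2 at its 5′ end. The genes MXD3, MNT, MLXIP and MLXIPL, had regions inside the gene only, and MAX, the shared partner, had none.

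Among 24 genes of the cyclin D, CDK, RB and E2F pathway, 3 had a region at an end. The S-phase kinase gene CDK2 had 6.80 and 5.29, the repressive E2F gene E2F4 had 5.65 and 5.20 at its 5′ end, and CDK4, the kinase partner of cyclin D1, had 3.51 and 4.80 at its 5′ end. CDK6, the other partner, had 6 shared regions overlapping the gene and none at an end, led by 1 of 5.43 and 4.94. The inhibitor gene CDKN2C and the genes RBL2 and TFDP2 likewise had regions inside the gene only. The other 17 genes had none, among them RB1, CCNE1, CCNE2, E2F1 and the inhibitor genes CDKN1A, CDKN1B and CDKN2A.

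Of 8 genes for the turnover of MYC and cyclin D1 none had a region at an end, and 3, the ubiquitin ligase subunit genes FBXW7, FBXO4 and FBXO31, had them inside. Of 13 genes known as MYC targets 4 had a region at an end. Besides CDK4 these were EIF4E, the cap-binding translation factor, with 3.56 and 3.75 at its 5′ end, and LDHA, lactate dehydrogenase A, with 4.02 and 3.35 at its 3′ end. The fourth was PTMA, prothymosin alpha, with 3.51 and 2.76 at its 3′ end. Of all listed genes TERT, the telomerase reverse transcriptase gene, had the most shared regions in its window (19), followed by E2F4 and CDKN2D (16 each), all fewer than MYC.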

How the data were processed

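The 2 deposited peak lists, 1 per library, were used as given. Per the submitters' processing notes the build was GRCh38 (hg38) and the tools, named without roles, included MACS2 2.2.7.1 and Bowtie2 2.2.5, besides cutadapt 1.18, deepTools 3.5.1, ChIPseeker 1.32.1 and DiffBind 3.6.5. The authors' deposited columns are a fold enrichment (a linear ratio within 1 library), −log10 p and −log10 q at the summit, a summit offset in bp (another value), and a score that equals 10 times −log10 q without its decimals in 100% and 99.95% of peaks. Whether calling used a control is not given in those notes or labels.

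The analysis took the peaks of chromosomes 1 to 22 and X and used Python 3.11.15 and pandas 2.3.3. Coordinates are 1-based. Peaks overlapping by at least 1 bp were joined, and a region took its strongest peak per library and the midpoint of their summits. A region counted for a gene's end when it lay within 1 kb of it. Fold enrichment was taken as the pileup plus 1, divided by the background in fragments plus 1. Pileup and background were solved from fold enrichment and p as whole-number pileups. The deposited p was met within a relative tolerance of 5e-05 in 99.99% and 99.996% of peaks. With fragment lengths of 178 and 163 bp, found from the values, the background was whole reads within 0.05 in 96.2% and 94.3% of peaks with a pileup under 100. The solver and the overlap code were tested on simulated data. The lowest background, 108 and 128 reads per 10 kb, reflects the depth of the libraries, which is otherwise unknown.

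The members, the gene lists and the comparisons were chosen with earlier results of these data known. Named were both genes, all coding, long non-coding and miRNA genes of the windows, up to 4 members of each list with a region at an end, and the 3 listed genes with the most regions in their window. Genes with regions inside only or with none were named in addition, after their values were seen.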

Additional observations from a re-analysis of the deposited data

How the results depend on the processing

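The counts and shares were recomputed with stricter peaks, stricter matching, other distances and single libraries. No such recount over all peaks or genes is given, so the usual values under these settings are not known. Requiring −log10 q of at least 5 left 12 of the 23 shared regions around MYC, 3 of the 10 around CCND1, and 0 at the ends of either gene. A fold enrichment of at least 5 left 0 around MYC and 2 around CCND1, and again 0 at the ends, so by that measure CCND1 stood above MYC. With summits within 100 bp, 13 were left around MYC. With 100 kb on each side the counts were 6 and 5. Within 3 kb of an end CCND1 had 2 in place of 1, the added one at its 5′ end. The share of MYC peaks found in the other library, 80.4% as the mean of the replicates, was 64.9% when 50% reciprocal overlap was required and 44.4% when summits had to lie within 100 bp. With −log10 q of at least 5 the CCND1 share of 76.9% became 54.2%, a mean of 2 replicates that lay far apart (SD 29.5). It was 53.8% with the overlap rule, 61.5% with the summit rule, 71.4% with 100 kb and 76.7% with 500 kb on each side. With either library alone, peaks in the window ranged from 27 to 32 for MYC and were 13 for CCND1, and those at an end were 2 and 1. No paired analysis was possible because there is 1 group and no contrast. Depth limits every value: a typical peak rested on a pileup of 19.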
